A study of Mus musculus with 18 samples.

Results

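Kidney transplantation in the mouse was followed here by its change over time: the difference between transplant and sham surgery at day 14 minus the same difference at day 1. A kidney that has been kept cold and reperfused first loses expression of its tubule genes and switches on injury, stress and growth programmes. Over the following days tubules regain function, the stroma expands and leukocytes of the recipient can enter the graft. A difference of differences picks out the genes whose place relative to sham moved, and among these the genes that crossed from one side of sham to the other, which are called reversed below. The contrast compared 12 of 18 libraries, with the spread estimated over all 18. It was tested in 15273 of 54802 genes in the table. These had FPKM (fragments scaled to gene length and library size) of at least 1 in at least 3 of the 18 libraries.

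The 4 groups compared were sham at day 1, transplant at day 1, sham at day 14 and transplant at day 14, each with 3 libraries, and n = 3 holds for every group below. The titles give surgery, day and library number, the treatment field describes the transplant as associated with cold storage, and all samples carry the genotype label WT. Strain, sex, age, the donor and recipient, and the time in the cold are not stated. RNA was taken from the renal cortex with Trizol, per the labels. The same labels carry a rat tubular cell line and a diabetic model with ischemia and reperfusion, neither of which matches the titles, and the groups were taken from the titles. Kidney markers fixed for the analysis were present in every group, and the 5 proximal tubule markers summed to 1962 to 2262 FPKM in sham at day 1. The labels do not say whether the 3 libraries of a group are 3 animals, so a p-value reflects the scatter among libraries, and that scatter may be technical. The day 1 and day 14 effects share no library. Depth is unknown, since FPKM keep no counts. Differences are in log2(FPKM + 1), a scale that shrinks the changes of low genes, and a change is given ± its standard error (SE). Gene positions are those of build GRCm38 (GENCODE M21).

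Scaling matters for the sign of a gene near 0. The median log2 difference of all tested genes was 0.31 at day 1 and 0.27 at day 14 as deposited, and 0.03 and 0.02 under median-of-ratios scaling, which centres the typical gene on 0. The median of the change itself was -0.03, and 0.02 under that scaling, so the change is nearly free of this shift. Transcripts of the mitochondrial chromosome took 16.9% to 24.7% of the FPKM sum in transplant at day 1, 23.02% to 27.7% at day 14, and 28.8% to 31.5% over the sham libraries of both days.

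The transplant effect changed in 1566 of 15273 genes (10.3%), at an adjusted p below 0.05 (limma with Benjamini-Hochberg adjustment over all genes). It was higher at day 14 in 794 (5.2%) and lower in 772 (5.05%). Most of these genes moved towards sham: 464 were above sham at day 1 and not called at day 14, 308 were below sham at day 1 and not called at day 14, and 207 rises and 136 falls were still called at day 14 but smaller. A second set arrived late, with 262 genes above sham and 52 below it at day 14 alone. The effect grew in 30 genes above and 12 genes below sham at both days, and 16 genes were called for the change but at neither day. For comparison, 39.1% of all genes were called at day 1 (29.6% above and 9.57% below sham) and 27.5% at day 14 (22.4% above and 5.12% below). This excess above sham depends on the scaling: under median-of-ratios scaling 2250 genes were called above and 2366 below sham at day 1, and 1754 and 1699 at day 14. The remaining 50 genes went from below to above sham (0.327% of those tested) and 29 from above to below (0.19%). Their median changes were 1.95 and -1.72. In 41 of the 50 the 3 transplant libraries lay below all 3 sham libraries at day 1 and above them at day 14. In 26 of the 29 they lay above and then below. Over all genes these patterns held in 0.668% and 0.491%. The reversed genes were called from these same libraries, so their separation follows largely from the selection and is not separate evidence. Separation at both days was also a condition for naming the reversed genes with the largest changes below. Taken 1 day at a time, all transplant libraries lay above sham in 37.9% of all genes at day 1 and 31.5% at day 14, and below in 11.9% and 7.33%.

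The movement lay mostly in the transplant libraries. The median absolute difference between the days over the called genes was 1.2 in transplant and 0.15 in sham on the log2 scale. In 40 of the 1566 genes the sham difference was the larger of the pair. Between the sham groups, limma called 1 gene, Hsph1 (0.00655%), and 746 genes had an unadjusted p below 0.05. Between the transplant groups it called 11.1% of genes higher and 13.5% lower at day 14.

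**Figure D1:**
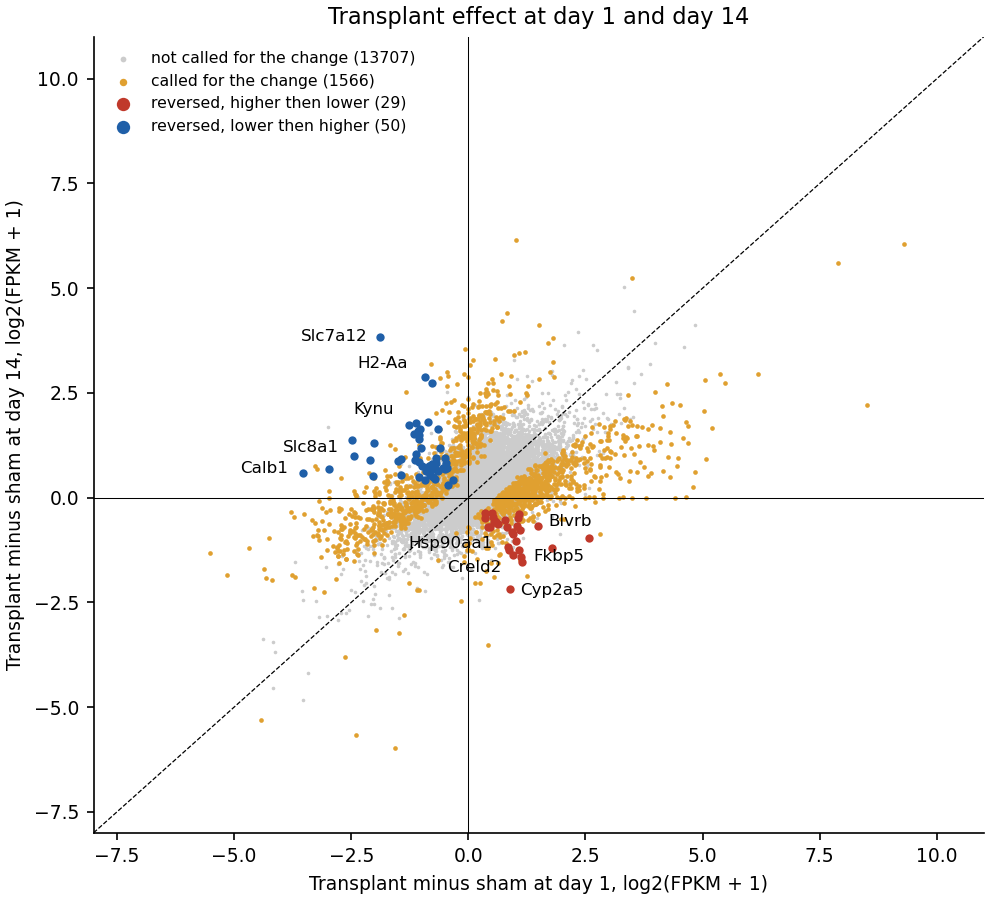
Each point is a gene, with transplant minus sham at day 1 on the x axis and at day 14 on the y axis, both as log2(FPKM + 1), and the dashed line marks equal effects. The 50 blue genes sit above 0 at day 14 after lying below 0 at day 1, and the 29 red genes do the opposite.

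All 50 genes that went from below to above sham and all 29 that went the other way remained called for the change under 4 other scalings (median-of-ratios, quantile, equal sums, and equal sums without the mitochondrial chromosome). Opposite signs at the 2 days were kept under these scalings by 49 and 27, the exceptions being Itm2b, Mia2 and Uhmk1. The call at both days is stricter: 18 and 6 met it under every one of the 4 scalings, and 12 and 4 in every alternative setting in which they were tested, of 25 tried. Leaving out sham at day 14 replicate 2 or transplant at day 14 replicate 2 gave 33 and 31 genes reversed from below to above, of which 31 and 27 were among the 50, while the signs stayed opposite in all 50 without each library in turn. For a reversed gene, a value given below without 1 library comes from the fit with the highest adjusted p. Other fits can lose the call too. The libraries of day 7 entered the definition only through the gene filter and the shared estimate of the spread. Fitted without them, 34 genes were reversed from below to above, 33 of them among the 50. From above to below there were 23, with 21 among the 29. The day 7 libraries placed 43 of the 50 and 28 of the 29 between their day 1 and day 14 effects, against 82.5% of all genes called for the change. At day 7, 24 of the first set were already called above sham and 2 below (35.5% and 6.01% of all genes). Of the second set, 5 were above, 4 below and 20 not called.

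Some genes of the distal nephron, which fine-tunes the recovery of calcium, magnesium and salt, crossed from below to above sham. They were 2 of 16 tested in the distal convoluted and connecting tubule and 4 of 17 in the thick ascending limb. In intercalated cells they were 1 of 17 and in principal cells 0 of 14, against 0.327% of all genes. Slc8a1 (ENSMUSG00000054640, chr17:81373105-81738377), the sodium-calcium exchanger that moves calcium out of connecting tubule cells, was at 20.8, 21.5 and 28.5 FPKM in sham and 3.82, 3.88 and 2.76 in transplant at day 1. At day 14 it was at 22.01, 18.5 and 16.9 in sham and 37.7, 35.99 and 43.1 in transplant. The groups did not overlap at either day, and the log2 difference went from -2.45 (SE 0.16) to 0.99 (SE 0.16), a change of 3.44 ± 0.22 (adjusted p = 1.01e-07). Calb1 (ENSMUSG00000028222, chr4:15881264-15908064), the calcium-binding protein calbindin of the same cells, stood at 114, 97.1 and 104 in sham and 11.3, 7.001 and 6.78 in transplant at day 1, and at 110.4, 118 and 125 in sham and 132, 177 and 239 in transplant at day 14. Its change was 4.12 ± 0.29 (adjusted p = 1.09e-07), with all transplant libraries below sham at day 1 and above it at day 14, and the difference went from -3.53 to 0.59 (adjusted p = 0.0375). The day 14 difference is the weak side: it was 0.38 (adjusted p = 0.185) without transplant at day 14 replicate 3 and 0.27 under median-of-ratios scaling. The day 14 call was lost in 5 of the 12 fits that left out a library. Cldn8, a tight junction claudin of the distal nephron, was at 14.7, 14.99 and 18.4 FPKM in transplant against 27.2, 28.8 and 27.03 in sham at day 1, and at 50.4, 52.2 and 56.7 against 25.9, 33.96 and 31.7 at day 14. Transplant and sham libraries were separate at both days. Its change of 1.55 ± 0.21 (adjusted p = 0.000121) held as a reversal in every setting tried, as did that of Slc8a1.

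The wider lists moved with them. Of 16 tested genes of the distal convoluted and connecting tubule, 13 were called higher for the change and 0 lower, against 5.2% of all genes called higher. The list's median went from -0.89 at day 1 to 0.35 at day 14, and from -1.27 to 0.03 under median-of-ratios scaling. The thick ascending limb had 13 of 17 higher and 0 lower, with medians of -1.15 and 0.40 (-1.5 and 0.10 under that scaling). Its reversed members included Kng2, a kininogen, Sostdc1, a secreted antagonist of BMP and Wnt signals, and Ptger3, a prostaglandin E2 receptor. Sostdc1 was at 23.8, 28.8 and 17.4 FPKM in sham and 10.1, 13.4 and 6.83 in transplant at day 1, and at 26.2, 23.9 and 28.1 in sham and 37.2, 58.6 and 54.5 in transplant at day 14, a change of 2.04 ± 0.31 (adjusted p = 0.000345). All transplants were below sham at day 1 and above sham from day 7. At day 7 it was higher still, at 90.1, 76.6 and 92.9 against 28.2, 24.2 and 32.7. Slc12a1, the sodium-potassium-chloride cotransporter, changed by 3.20 ± 0.28 from -2.72 to 0.48 and was not called at day 14 (adjusted p = 0.0825). Umod, the abundant secreted product of the same limb, did not pass the test, with a change of 0.14 ± 0.25 (adjusted p = 0.785). Atp6v1b1, the proton pump subunit of intercalated cells, reversed with a change of 1.16 ± 0.21, in 15 of 25 alternative settings, and its day 14 rise was 0.36 (adjusted p = 0.142) without sham at day 14 replicate 1. Ptger3 was reversed in 14 of 25 settings, and neither Atp6v1b1, Ptger3, Kng2 nor Sostdc1 was reversed under median-of-ratios scaling. For the change 6 of 17 intercalated cell genes and 2 of 14 principal cell genes were called higher, the latter with a median going from -0.08 to 0.64. In whole cortex, fewer cells of a type and less RNA per cell cannot be told apart. The 2 fixed markers of the distal convoluted tubule went different ways. Slc12a3, its sodium-chloride cotransporter, was at 305, 369.6 and 359.6 FPKM in sham and 428, 471 and 464 in transplant at day 14, after 355, 219 and 329 in sham and 202, 248 and 202 in transplant at day 1. Pvalb, the calcium-binding protein parvalbumin, was still below sham at day 14, at 2.86, 3.26 and 1.63 in transplant and 12.6, 11.8 and 10.3 in sham, after 0.301, 0 and 0.0308 in transplant and 16.8, 12.2 and 13.5 in sham at day 1. The part of cell numbers in these reversals was not tested.

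**Figure D2:**
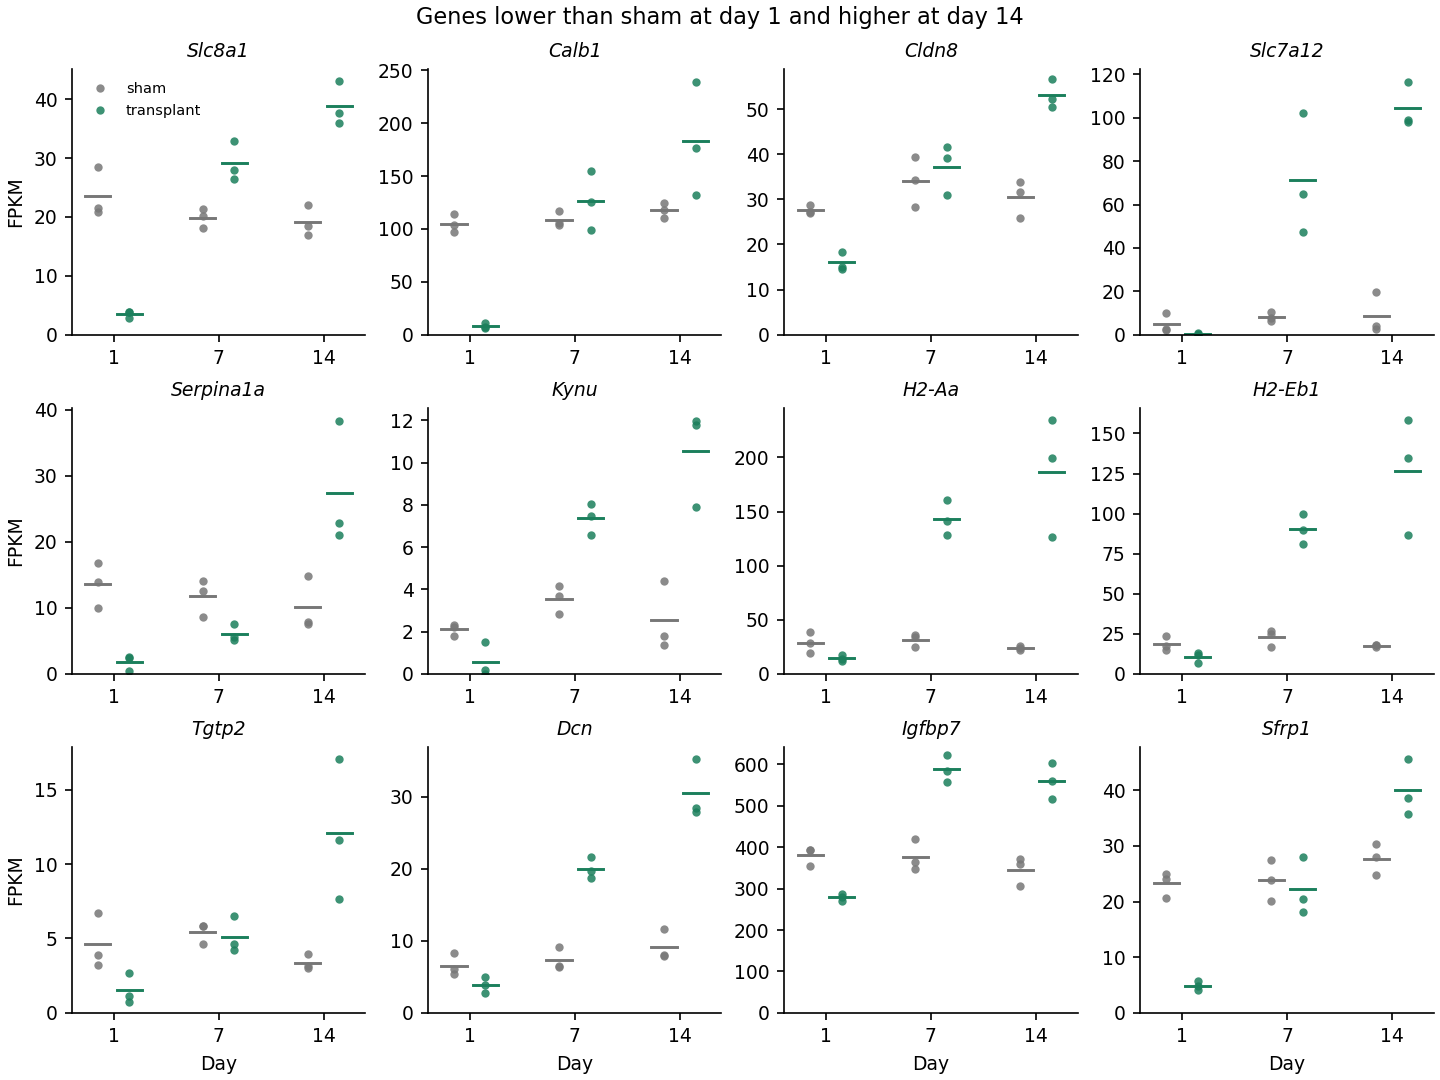
FPKM of 12 reversed genes in each library by day, with sham in grey and transplant in green, points for libraries and bars for group means of 3. Slc8a1 transplants lie below sham at day 1 and above sham at day 14, and the day 7 libraries of H2-Aa, H2-Eb1 and Dcn are already above sham.

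Some genes of antigen presentation also crossed from below to above sham. Reversed were 2 of 10 tested in the class II list and 0 of 21 in the class I list, against 0.327% of all genes. At day 1, 2 of the 10 class II genes were called below sham and 1 above. H2-Aa (ENSMUSG00000036594, chr17:34282744-34287823), the alpha chain of the MHC class II molecule that shows peptides to helper T cells, was at 28.6, 19.4 and 38.6 FPKM in sham and 17.4, 11.7 and 13.6 in transplant at day 1. At day 14 it was at 22.1, 25.3 and 23.6 in sham and 199, 234 and 127 in transplant. Every transplant library was below every sham library at day 1 and above all of them at day 14, a change of 3.82 ± 0.33 (adjusted p = 1.67e-06) that kept its reversal in every setting tried. The beta chain gene H2-Eb1 changed by 3.52 ± 0.33 (adjusted p = 3.08e-06), from -0.78 to 2.74, though its day 1 fall was -0.54 (adjusted p = 0.0872) without transplant at day 1 replicate 3. Members of the H2 family are similar in sequence, and how shared reads were assigned is not given in the sources used here. H2-Ab1, the other classical beta chain, and Cd74, the invariant chain that escorts class II molecules, changed by 3.34 ± 0.39 and 3.10 ± 0.28 without a call at day 1 (adjusted p = 0.228 and 0.0823). In the class II list 8 of 10 tested genes were called higher for the change, and the list's median went from 0.05 to 2.60, or from -0.03 to 2.34 under median-of-ratios scaling. The class I list, on the path that shows peptides to killer T cells, had 2 of 21 called higher, against 5.2% of all genes, with medians of 0.93 and 1.27.

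Tgtp2 (ENSMUSG00000078921, chr11:49057194-49064206), a GTPase induced by interferon gamma, was at 3.21, 3.88 and 6.71 FPKM in sham and 2.698, 1.16 and 0.737 in transplant at day 1, and at 3.14, 3.92 and 3.04 in sham and 17.03, 7.65 and 11.6 in transplant at day 14. All 3 transplants were the lowest libraries at day 1 and the highest at day 14. Its change was 2.70 ± 0.42 (adjusted p = 0.000463), it was not called at day 7 (-0.08, adjusted p = 0.846), and its near-identical neighbour Tgtp1 moved likewise by 2.69 ± 0.50, so the values of the pair are uncertain. Of 26 tested interferon gamma targets (30 listed), 14 were called higher for the change and 0 lower. Among them were Ifi47 (2.36 ± 0.35), Irgm2 (1.42 ± 0.29) and Gbp2 (1.68 ± 0.37), GTPases of cell-autonomous defence, and Ciita (1.37 ± 0.42), the master regulator of class II genes. The type I interferon list had 0 called higher and 2 lower of 33, against 5.2% and 5.05% of all genes. Its median was 0.97 at day 1 and 1.30 at day 14.

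Csf1r, the receptor that keeps macrophages alive, was at 8.09, 8.36 and 7.297 FPKM in sham and 4.14, 3.61 and 3.59 in transplant at day 1, and at 6.99, 8.35 and 9.19 in sham and 14.3, 14.7 and 11.2 in transplant at day 14, a change of 1.54 ± 0.29 (adjusted p = 0.0022). No transplant library lay within the sham range at either day. Its day 14 rise was 0.55 (adjusted p = 0.101) without sham at day 14 replicate 1. Plbd1, a phospholipase B-like protein of myeloid cells, changed by 2.66 ± 0.37 and Kynu (ENSMUSG00000026866, chr2:43555329-43682715), the kynureninase of tryptophan breakdown, by 2.91 ± 0.45 (adjusted p = 0.000448). Kynu was at 1.51, 0.165 and 0 FPKM in transplant and 2.32, 1.803 and 2.23 in sham at day 1, and at 7.92, 11.98 and 11.8 and 4.41, 1.81 and 1.37 at day 14. Transplant libraries were all below sham at day 1 and all above it at day 14, but the levels at day 1 are low. Without transplant at day 1 replicate 3 its day 1 difference was -0.86 (adjusted p = 0.0557), and that of Plbd1 was -0.61 (adjusted p = 0.0888) without transplant at day 1 replicate 2. Of 26 tested monocyte and macrophage genes, 17 were called higher for the change, with a median going from 0.57 to 2.26. The 3 fixed macrophage markers Adgre1, C1qa and Csf1r, the last itself one of the reversed genes, were above 0 in every group and summed to 8.42 to 10.5 FPKM in transplant at day 1, 37.8 to 63.1 at day 14, 9.71 to 12.8 in sham at day 1 and 11.1 to 14.5 in sham at day 14. Of these markers Csf1r alone lay below sham at day 1. Adgre1 was at 0.519, 0.987 and 0.921 in transplant against 0.0994, 0.398 and 0.738 in sham at day 1. C1qa was at 3.75, 5.88 and 4.14 against 4.575, 0.951 and 4.38. The 4 T cell markers summed to 0.05503 to 0.837 and 2.84 to 4.89 FPKM in transplant at day 1 and day 14, against 0.239 to 0.499 in sham at day 1 and 0.2802 to 0.455 in sham at day 14, and Cd3e was at 0 in transplant at day 1. The part of these cells in the reversals of class II and interferon genes was not tested.

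Complement genes followed the same course without reversing, with 12 of 19 called higher for the change. C1qa, a subunit of the first component, changed by 2.32 ± 0.47, Cfi, the protease that inactivates C3b, by 2.67 ± 0.44, and C3 itself by 1.76 ± 0.49, from 3.50 to 5.25. Neutrophil genes went the other way: of 8 tested genes of 16 listed, 3 were called lower. S100a9, a subunit of calprotectin, was at 17.7, 29.9 and 35.9 FPKM in transplant at day 1 and 1.504, 0 and 0.583 at day 14, and was listed at 0 in all sham libraries of day 1, a change of -4.53 ± 0.61 (adjusted p = 0.000112).

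Proximal tubule genes, which carry most of the reabsorption of the kidney, were mostly closer to sham at day 14 than at day 1, and a few had crossed it. Reversed from below to above were 1 of 42 transporters of this segment, against 0.327% of all genes. Among 40 genes of solute and drug metabolism and 9 of gluconeogenesis and glucose release there were 0. Slc7a12 (ENSMUSG00000039710, chr3:14480697-14505830), an amino acid transporter, had the widest change of the reversed genes, 5.72 ± 0.71 (adjusted p = 5.95e-05). It was at 2.204, 10.1 and 2.63 FPKM in sham and 0.674, 0.539 and 0 in transplant at day 1, and at 19.5, 2.77 and 4.11 in sham and 98.1, 117 and 98.9 in transplant at day 14. The groups did not overlap at either day, although the sham libraries themselves spread widely, and the day 1 difference was -1.31 (adjusted p = 0.0501) without sham at day 1 replicate 2. Rdh16f2, a short-chain dehydrogenase of the retinol dehydrogenase family, was at 23.3, 26.4 and 19.3 in sham and 8.26, 3.67 and 3.77 in transplant at day 1, and at 35.4, 30.4 and 32.04 in sham and 74.9, 111 and 66.1 in transplant at day 14, a change of 3.31 ± 0.39 (adjusted p = 3.08e-05). Serpina1a and Serpina1c, near-identical genes of the antitrypsin family whose reads may be split between them, changed by 3.84 ± 0.48 and 3.0 ± 0.39. Serpina1a was at 2.45, 2.53 and 0.404 in transplant against 13.9, 16.8 and 9.997 in sham at day 1 and at 22.8, 38.3 and 21.1 against 14.9, 7.801 and 7.57 at day 14. For both Rdh16f2 and Serpina1a the transplants were separate from sham at both days, and both kept their reversal in every setting tried. Slc22a29, of the organic anion transporter family, changed by 2.35 ± 0.41 with a day 14 difference of 0.91, which was 0.80 (adjusted p = 0.0926) without sham at day 14 replicate 1. Abca13, a lipid-transporting ABC protein, changed by 3.65 ± 0.33 from -2.97 to 0.68, the latter 0.60 (adjusted p = 0.118) without sham at day 14 replicate 3.

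Of 42 proximal tubule transporters, 36 were called below sham at day 1 and 21 at day 14, and 20 were called higher and 4 lower for the change. Slc34a1, the main phosphate transporter, changed by 1.94 ± 0.26 from -2.70 to -0.76, and Lrp2, the endocytic receptor megalin, by 1.32 ± 0.32 from -2.13 to -0.81. The 4 that went lower were Slco1a1 (-3.27 ± 0.31), Slco3a1 (-1.37 ± 0.19), Slc6a18 (-1.17 ± 0.27) and Slc7a13 (-0.89 ± 0.23). In the list of enzymes of solute and drug metabolism, 20 of 40 were called higher and 2 lower. Hao2, a peroxisomal hydroxyacid oxidase, went from 18.1, 18.03 and 5.41 FPKM in transplant at day 1 (sham 110.1, 167 and 114) to 159, 205 and 202 at day 14 (sham 133, 114 and 88.3), a change of 4.05 ± 0.42 (adjusted p = 9.3e-06). It lay above all sham libraries at day 14 but missed the call there (adjusted p = 0.0646). Ugt1a2, a glucuronidation enzyme of a locus whose members share exons and so reads, rose at both days and changed by 5.14 ± 0.48: it was at 65.7, 96.1 and 91.3 FPKM in transplant at day 14, and no other library of the 4 groups exceeded 2 FPKM. Scd1, the stearoyl-CoA desaturase, changed by 3.90 ± 0.60 and Serpina1f by 3.64 ± 0.65, both from below sham to no call at day 14.

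A small group of sex-dependent proximal tubule genes fell further. Kap, the androgen-regulated kidney protein, was at 17661, 22682 and 20651 FPKM in sham and 7547, 5152 and 8324 in transplant at day 1, and at 19007, 16558 and 19732 in sham and 398, 272 and 228 in transplant at day 14. The groups did not overlap at either day, and the log2 difference deepened from -1.56 to -5.98, a change of -4.42 ± 0.30 (adjusted p = 1.05e-07). Slco1a1, an organic anion transporter that is higher in males, deepened from -2.40 to -5.68 and Cyp2j13 from -1.47 to -3.23. Prlr, the prolactin receptor, went the other way by 3.46 ± 0.51, from -0.47 to 2.99, as did Slc7a12. Of the 22 listed sex-dimorphic genes 6 were called higher and 6 lower for the change, and the 4 tested sex-linked genes had no call for the change at an adjusted p below 0.05. Over all 18 libraries Xist, a transcript of female cells, was at most 0.0563 FPKM, and the Y-linked Ddx3y was at 11.8 to 24.4.

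Some stromal and secreted factors were also reversed from below to above sham. In the list of matrix genes this was 1 of 41 tested, against 0.327% of all genes. Dcn (ENSMUSG00000019929, chr10:97479609-97518143), the matrix proteoglycan decorin, was at 6.02, 5.38 and 8.32 FPKM in sham and 3.89, 2.69 and 4.93 in transplant at day 1, and at 11.7, 7.87 and 8.03 in sham and 27.95, 28.4 and 35.3 in transplant at day 14, a change of 2.30 ± 0.29 (adjusted p = 6.87e-05). Its transplants were below every sham library at day 1 and above every one at day 14. Without transplant at day 1 replicate 2 the day 1 difference was -0.47 (adjusted p = 0.095). Igfbp7, a secreted insulin-like growth factor binding protein, was at 286, 269.7 and 279.9 in transplant against 356, 394 and 393 in sham at day 1, and at 560.2, 604 and 517 against 372, 359 and 306 at day 14. Its change of 1.15 ± 0.16 (adjusted p = 0.000152) and that of Pdgfd, a ligand of the platelet-derived growth factor receptor, of 1.64 ± 0.24 (adjusted p = 0.000256) were reversals in every setting tried. Sfrp1, a secreted Wnt antagonist, fell deeply at day 1, to 4.84, 5.79 and 4.11 FPKM against 24.1, 24.9 and 20.7, and stood at 35.7, 45.6 and 38.7 against 28.0, 30.3 and 24.8 at day 14, a change of 2.55 ± 0.24 (adjusted p = 2.59e-06). The libraries did not overlap at either day. Its day 14 difference was 0.42 (adjusted p = 0.114) without transplant at day 14 replicate 2. Cdkn2c, an inhibitor of cyclin-dependent kinases, changed by 2.57 ± 0.54, and its sham libraries moved by -1.22 between the days against 1.35 in transplant. Its day 1 difference was -0.69 (adjusted p = 0.19) without transplant at day 1 replicate 3. Of 41 matrix genes, 27 were called above sham at day 1 and 39 at day 14, and 18 were called higher for the change, among them Mgp (2.42 ± 0.30), Fn1, fibronectin (2.27 ± 0.49), Lox, which cross-links collagen (2.14 ± 0.40), and Col1a2 (1.25 ± 0.35). The 3 fibroblast markers Pdgfra, Col1a1 and Dcn, the last itself reversed, summed to 16.5 to 27.2 FPKM in transplant at day 1 and 65.98 to 72.9 at day 14, with sham between 7.98 and 15.3. Of these markers Dcn alone lay below sham at day 1. Col1a1 was at 9.22, 20.7 and 11.5 in transplant against 0.919, 0.882 and 1.54 in sham at day 1. Pdgfra was at 3.36, 3.79 and 4.72 against 1.35, 1.72 and 2.29. The part of fibroblasts in these changes was not tested.

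Some cytosolic chaperones were in the opposite set, above sham at day 1 and below it at day 14. Of 20 tested in the heat shock list 3 were reversed in this way, against 0.19% of all genes. Hsp90aa1 (ENSMUSG00000021270, chr12:110690605-110702728), the stress-inducible HSP90, was at 118, 142 and 143 FPKM in sham and 249.98, 261 and 313 in transplant at day 1. At day 14 it was at 248, 227 and 296 in sham and 127, 111 and 132 in transplant. The groups did not overlap at either day, the change was -2.07 ± 0.22 (adjusted p = 1.18e-05), and it was a reversal in every setting tried. The sham libraries moved too: they were 0.93 higher at day 14 than at day 1 on the log2 scale, without passing the test (adjusted p = 0.101), while the transplants were -1.14 apart (adjusted p = 3.7e-05). Hsp90ab1, the constitutive form, changed by -1.11 ± 0.17 (adjusted p = 0.00046) and Hspa4l, a nucleotide exchange factor of HSP70, by -1.25 ± 0.26 (adjusted p = 0.00491), with sham differences of 0.48 and 0.79. Hspa4l was reversed in 17 of 25 settings: its day 1 rise was 0.48 (adjusted p = 0.0698) without transplant at day 1 replicate 3, and its day 14 fall -0.50 (adjusted p = 0.0785) without transplant at day 14 replicate 2. HSP90 genes have processed pseudogenes of similar sequence, and how shared reads were assigned is not given in the sources used here.

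The rise in sham ran through the list. All 20 heat shock genes had a higher mean log2 value in sham at day 14 than at day 1, with a median difference of 0.50, against 6883 of all 15273 genes, and the one that passed the test was Hsph1 (1.19, adjusted p = 0.0366). Hsph1, an HSP110 chaperone, was at 33.5, 28.3 and 42.7 FPKM in sham at day 1, 43.6, 39.8 and 38.3 at day 7 and 99.3, 80.6 and 62.5 at day 14, whereas transplants were at 35.5, 35.1 and 26.9 at day 1 and 24.9, 25.9 and 29.6 at day 14. At day 1 sham and transplant overlapped, and at day 14 every sham library was above every transplant. Its transplant effect changed by -1.45 ± 0.25 (adjusted p = 0.000964) although the transplant libraries differed by -0.26 (adjusted p = 0.301). Measured against the mean of all 3 sham groups, a control chosen after the values were seen, the day 14 difference was -0.48 (adjusted p = 0.00734) for Hsp90aa1, -0.23 (adjusted p = 0.0835) for Hsp90ab1 and -0.17 (adjusted p = 0.401) for Hspa4l. With that control 23 of the 29 genes that went from above to below sham, and 47 of the 50 that went the other way, were still called reversed. With it the list's medians were 0.36 at day 1 and -0.20 at day 14, against 0.59 and -0.58 with the sham of the same day. Of the 20 genes, 8 were called lower for the change and 0 higher. Hspb1 and Cryab, small heat shock proteins, shrank from 4.48 and 3.84 at day 1 to 0.94 and 0.52 at day 14.

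Creld2 (ENSMUSG00000023272, chr15:88819646-88826683), a protein of the endoplasmic reticulum that is induced by unfolded proteins, was at 11.6, 9.38 and 7.999 FPKM in sham and 19.99, 23.6 and 15.9 in transplant at day 1, and at 23.8, 24.01 and 16.5 in sham and 6.93, 10.9 and 5.55 in transplant at day 14. Transplants were above sham in every library at day 1 and below in every library at day 14. The change was -2.34 ± 0.30 (adjusted p = 8e-05) and a reversal in every setting tried, with the sham groups 1.07 apart (adjusted p = 0.271) and the transplants -1.27 (adjusted p = 0.000278). Against the mean of the 3 sham groups its day 14 difference was -0.66 (adjusted p = 0.0067). Hspa5, the main chaperone of the same compartment, was at 353, 261 and 239 in sham and 145, 145 and 109 in transplant at day 14 and changed by -1.09 ± 0.24 (adjusted p = 0.00694), with no call at day 1. In the list for unfolded proteins and the integrated stress response, 31 genes were tested: 7 were called lower and 0 higher, and 28 were higher in sham at day 14 than at day 1 by their means. The list's medians were 0.41 at day 1 and -0.17 at day 14, and 0.16 and 0.02 against the mean of the 3 sham groups, where they did not cross 0. P4ha1, a collagen prolyl hydroxylase subunit, changed by -1.16 ± 0.25, but its sham libraries differed by 0.84 and its transplants by -0.33 (adjusted p = 0.198), and its day 1 rise was 0.24 (adjusted p = 0.281) without transplant at day 1 replicate 2. The day 1 call of P4ha1 was lost in 9 of the 12 fits that left out a library, and it was reversed in 9 of 25 settings.

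**Figure D3:**
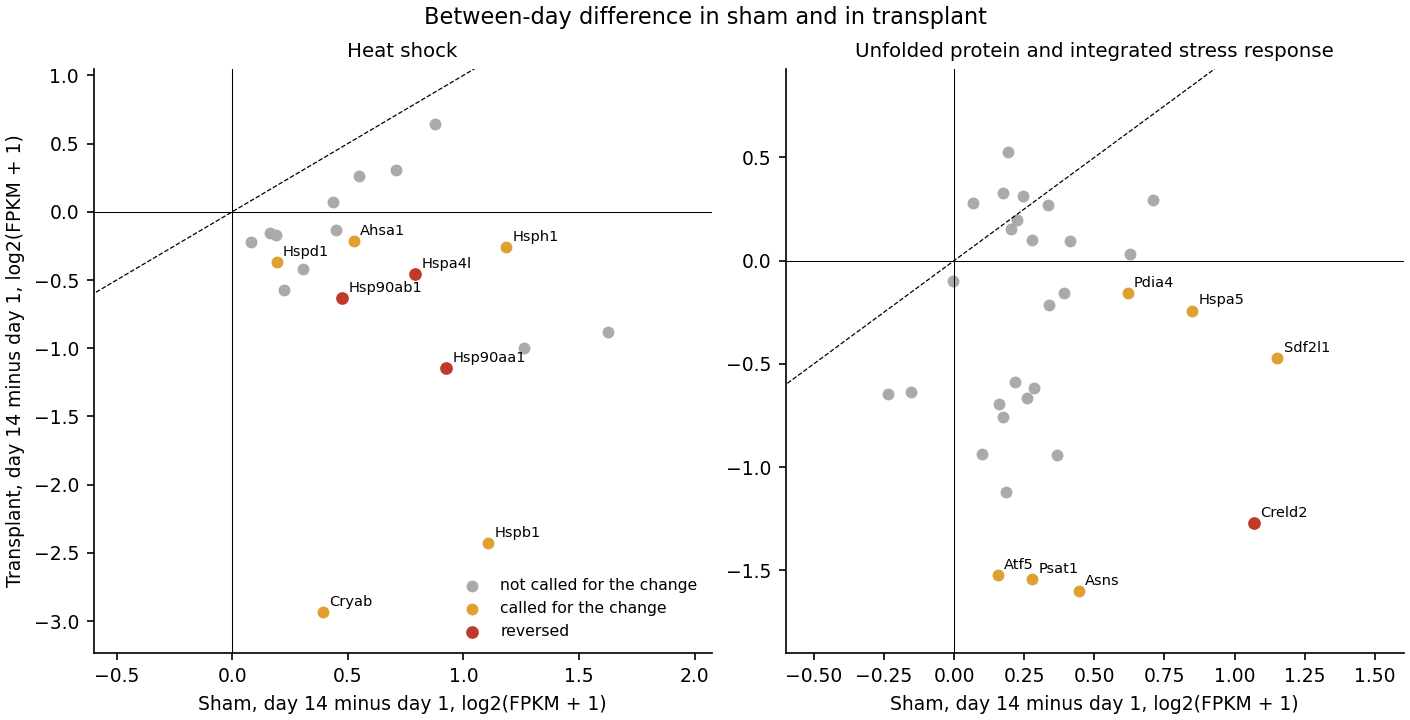
Difference between day 14 and day 1 within sham (x axis) and within transplant (y axis), as log2(FPKM + 1), for each tested gene of the heat shock list (left) and of the list for unfolded proteins and the integrated stress response (right). The dashed line marks equal differences. Points below the line have a lower transplant effect at day 14, and all 20 heat shock genes lie to the right of 0.

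Promoter sequences are printed for members of the chaperone, class II and interferon sets because these moved together. They run from 250 bases before to 50 after the RefSeq start, 5′ to 3′ on the gene's strand, on build GRCm38.p6, with the motif named after each gene in capitals, and entries were found for 15 of 20 heat shock, 29 of 31 unfolded protein, 7 of 10 class II and 17 of 26 interferon gamma genes. A match says only that these letters are present in the window.
Creld2 (chr15:88819396-88819695, + strand, ER stress element): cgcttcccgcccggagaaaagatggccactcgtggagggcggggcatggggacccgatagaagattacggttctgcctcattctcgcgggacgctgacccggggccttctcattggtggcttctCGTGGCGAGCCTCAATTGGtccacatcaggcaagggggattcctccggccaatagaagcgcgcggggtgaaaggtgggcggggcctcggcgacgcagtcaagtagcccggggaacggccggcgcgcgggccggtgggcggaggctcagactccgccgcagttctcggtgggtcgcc
Hspa5 (chr2:34771840-34772139, + strand, ER stress element): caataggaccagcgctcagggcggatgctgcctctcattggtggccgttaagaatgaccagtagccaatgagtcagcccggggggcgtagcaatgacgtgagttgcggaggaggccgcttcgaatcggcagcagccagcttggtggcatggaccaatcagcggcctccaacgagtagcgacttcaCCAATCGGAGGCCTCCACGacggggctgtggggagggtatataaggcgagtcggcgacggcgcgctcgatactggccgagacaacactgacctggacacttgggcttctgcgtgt
Hsph1 (chr5:149636266-149636565, - strand, heat shock, 2 repeats): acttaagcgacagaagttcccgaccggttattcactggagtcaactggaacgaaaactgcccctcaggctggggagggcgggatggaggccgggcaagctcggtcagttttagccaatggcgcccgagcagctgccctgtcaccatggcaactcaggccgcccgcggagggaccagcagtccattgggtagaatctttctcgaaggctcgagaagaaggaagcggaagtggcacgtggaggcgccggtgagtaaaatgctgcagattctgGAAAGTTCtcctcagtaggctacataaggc
H2-Aa (chr17:34287774-34288073, - strand, CCAAT box): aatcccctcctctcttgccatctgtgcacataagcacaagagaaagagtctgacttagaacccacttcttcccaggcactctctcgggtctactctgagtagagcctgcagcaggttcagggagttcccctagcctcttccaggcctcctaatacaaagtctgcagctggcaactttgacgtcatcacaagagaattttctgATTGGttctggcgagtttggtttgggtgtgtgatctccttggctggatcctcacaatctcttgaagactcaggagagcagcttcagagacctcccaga
Tgtp2 (chr11:49064163-49064462, - strand, interferon response): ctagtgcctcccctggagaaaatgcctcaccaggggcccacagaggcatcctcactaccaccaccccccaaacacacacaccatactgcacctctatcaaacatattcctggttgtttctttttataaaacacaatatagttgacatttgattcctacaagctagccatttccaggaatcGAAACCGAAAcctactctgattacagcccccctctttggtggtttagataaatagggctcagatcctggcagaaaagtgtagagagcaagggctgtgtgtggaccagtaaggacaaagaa
Both strands were searched. The endoplasmic reticulum stress element, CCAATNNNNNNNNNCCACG, which includes a CCAAT box and was added to the search after the promoters were seen, was found in 0.137% of all genes with an entry and in 7 of 29 genes of the unfolded protein list, Creld2 and Hspa5 among them. Heat shock repeats, GAANNTTC, were in 9.04% of all genes with an entry and 10 of 15 heat shock genes. CCAAT was in 41.1% of all genes with an entry, 6 of 7 class II genes and 25 of 29 unfolded protein genes. An interferon response core, GAAA followed after any 2 bases by GAAA, was in 3.99% of all genes with an entry and 10 of 17 interferon gamma targets. Entries were found for 35 genes reversed from below to above sham and 21 from above to below. Of these 35 and 21, the interferon core was in 2 and 1, and heat shock repeats in 4 and 0. The stress element was in 0 and 1, and CCAAT in 18 and 9.

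The other genes that went from above to below sham served varied functions. Fkbp5 (ENSMUSG00000024222, chr17:28399094-28517527), a co-chaperone of steroid receptors that glucocorticoids induce, was at 16.2, 11.1 and 26.4 FPKM in sham and 27.01, 36.97 and 54.4 in transplant at day 1, and at 29.0, 23.03 and 26.2 in sham and 12.97, 9.04 and 6.25 in transplant at day 14, a change of -2.55 ± 0.41 (adjusted p = 0.000632). Sham and transplant were separate at both days, by a narrow margin at day 1. At day 7 it was still above sham (1.04, adjusted p = 0.00917), and under median-of-ratios scaling the day 1 rise was 0.76 (adjusted p = 0.0509). Of 16 glucocorticoid-responsive genes 7 were called lower for the change and 0 higher, including Pdk4, which restrains glucose oxidation (-2.60 ± 0.68), Angptl4, a lipase inhibitor (-2.48 ± 0.58), and the metallothioneins Mt1 (-2.0 ± 0.32) and Mt2 (-2.32 ± 0.48). Other inducers act on many of these genes, and the list also holds Lcn2 and Cdkn1a of the injury and p53 lists.

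Fth1 and Blvrb, 2 genes of iron and heme handling, were reversed from above to below sham, as were 0.19% of all genes. No list of such genes was counted, so the 2 cannot be given as a share of those tested. Fth1, the ferritin heavy chain that stores iron, was at 2087, 2344 and 2267 FPKM in sham and 4656, 4479.99 and 4972 in transplant at day 1, and at 2105, 2092 and 2088 in sham and 1458, 1655 and 1684 in transplant at day 14, a change of -1.47 ± 0.16 (adjusted p = 1.48e-05). At day 1 all transplants were above sham, and at day 14 all were below. It was already below sham at day 7 (-0.46, adjusted p = 0.00358), its day 14 fall was -0.33 (adjusted p = 0.061) without transplant at day 14 replicate 1, and ferritin pseudogenes may share its reads. Blvrb, a biliverdin and flavin reductase, was at 5.86, 5.24 and 5.08 in sham and 13.99, 21.0 and 16.2 in transplant at day 1, and at 5.04, 5.68 and 4.297 in sham and 1.97, 3.58 and 2.898 in transplant at day 14, a change of -2.15 ± 0.27 (adjusted p = 6.4e-05), with a day 14 fall of -0.50 (adjusted p = 0.079) without transplant at day 14 replicate 1. Hmox1, heme oxygenase, returned from 2.70 to -0.09, a change of -2.80 ± 0.33. In the list of NRF2 targets, which defend against oxidants, 8 of 26 were called lower and 3 higher, the latter Gstm2, a reversed glutathione transferase of a family with similar sequences (1.55 ± 0.21), Ephx1 and Gsta4.

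Mpp1 (ENSMUSG00000031402, chrX:75109733-75131016), a scaffold of the membrane skeleton, was at 56.5, 58.1 and 71.7 FPKM in sham and 144, 109 and 133 in transplant at day 1, and at 75.3, 78.8 and 80.01 in sham and 45.9, 42.2 and 58.1 in transplant at day 14, a change of -1.72 ± 0.22 (adjusted p = 7.78e-05) that held as a reversal in every setting tried. Nhp2, a protein of the particles that guide RNA pseudouridylation, changed by -1.87 ± 0.36 (adjusted p = 0.00239), with transplants at 35.4, 76.4 and 43.3 FPKM at day 1 and 11.9, 10.9 and 6.78 at day 14. Its day 14 fall was -0.54 (adjusted p = 0.144) without transplant at day 14 replicate 3. It belongs to the ribosome biogenesis list, of which 33 of 35 were above sham at day 1, 5 at day 14, and 13 were called lower for the change. Aminoacyl-tRNA synthetases, which charge tRNAs for translation, likewise had 8 of 19 called lower. Cytosolic ribosomal proteins had 2 of 57 called lower, with 56 above sham at day 1 and 48 at day 14. Under median-of-ratios scaling 42 were above sham at day 1 and 9 at day 14.

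**Figure D4:**
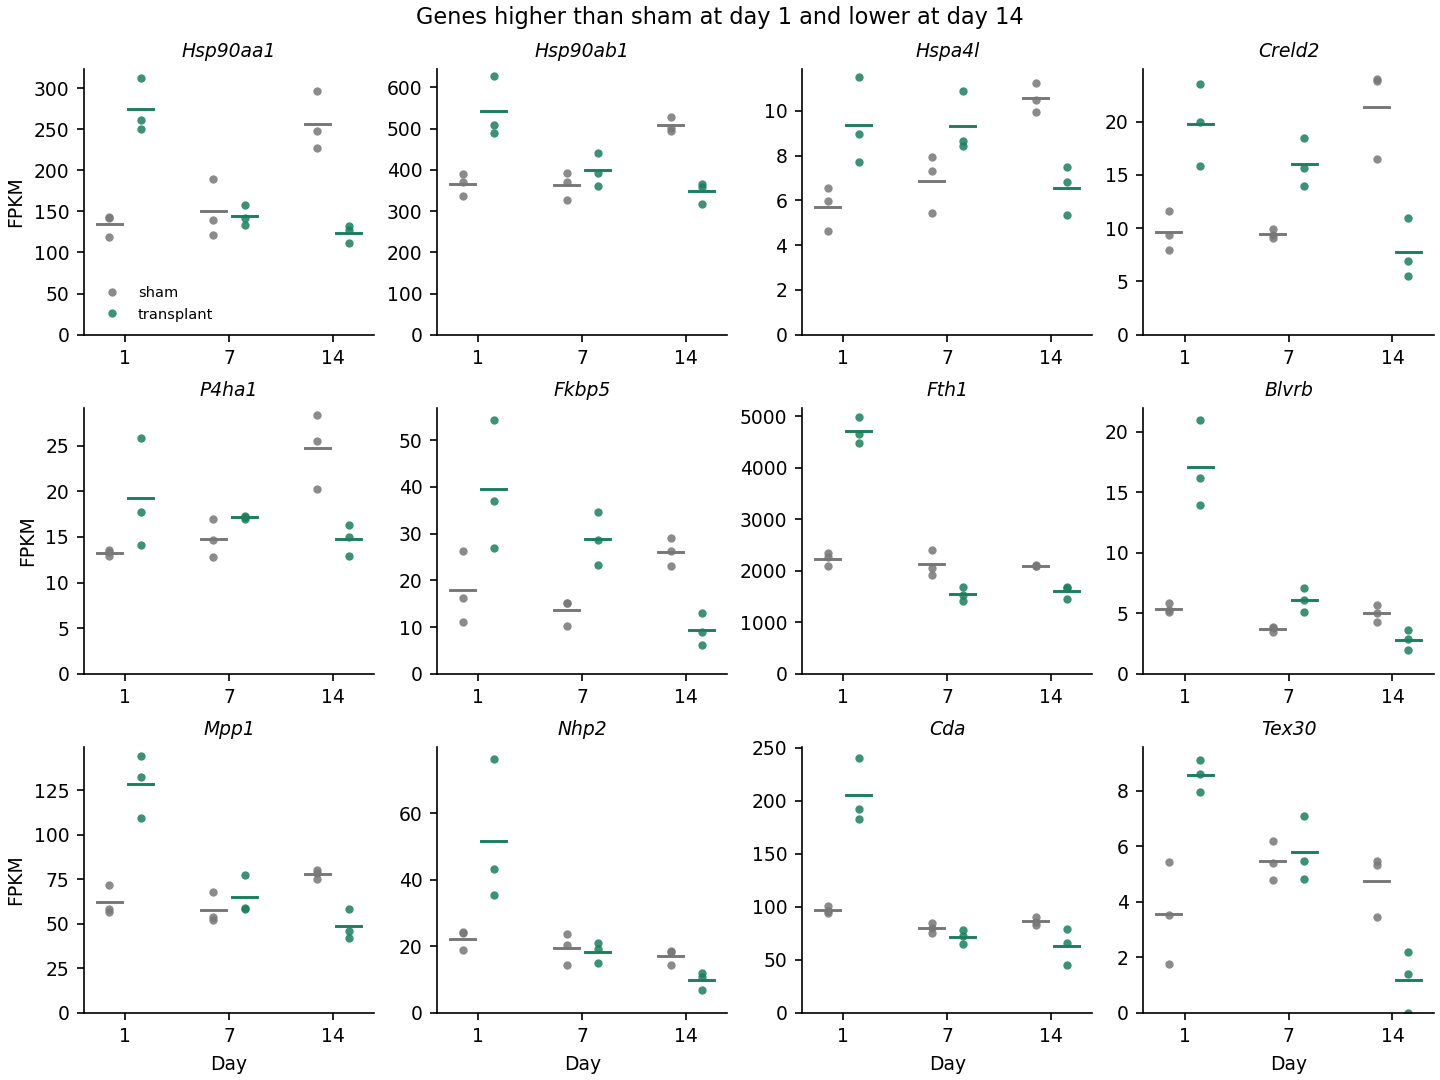
FPKM of 12 reversed genes in each library by day, with sham in grey and transplant in green, points for libraries and bars for group means of 3. For Hsp90aa1, Hspa4l, Creld2 and P4ha1 the sham means at day 14 are above those at day 1, and for Fth1, Blvrb and Cda the transplant means move further than those of sham.

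Cda, cytidine deaminase, changed by -1.54 ± 0.23, but its day 14 fall was -0.26 (adjusted p = 0.191) without transplant at day 14 replicate 3. Tex30 changed by -2.67 ± 0.48 and was at 2.18, 0 and 1.41 FPKM in transplant at day 14, where 1 library is listed at 0, and its day 1 rise was 0.82 (adjusted p = 0.0836) without sham at day 1 replicate 1. Osbpl10, an oxysterol-binding-protein relative, changed by -1.52 ± 0.32, Tmem129, an endoplasmic reticulum ubiquitin ligase, by -1.31 ± 0.24, Rbpms2, an RNA-binding protein, by -1.13 ± 0.21, and Opa3, a mitochondrial protein, by -1.13 ± 0.23. Each of these 4 lost the call at 1 of the days in more than 1 of the fits that left out a library. The values were -0.49 (adjusted p = 0.131) at day 14 for Osbpl10 without transplant at day 14 replicate 2 and -0.48 (adjusted p = 0.0822) for Tmem129 without sham at day 14 replicate 3. At day 1 they were 0.28 (adjusted p = 0.157) for Rbpms2 and 0.41 (adjusted p = 0.0702) for Opa3 without transplant at day 1 replicate 2.

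Further reversed genes belonged to varied families. From above to below sham, Cyp2a5, a cytochrome P450 of drug and nicotine metabolism, was at 73.8, 49.9 and 39.6 FPKM in sham and 137, 97.4 and 70.4 in transplant at day 1, where the groups overlapped, and at 30.98, 37.8 and 29.6 in sham and 6.35, 10.2 and 3.94 in transplant at day 14, where they did not. Its change was -3.06 ± 0.40 (adjusted p = 9.56e-05), and P450 genes of its family are similar in sequence. Hsd17b2, a dehydrogenase that inactivates sex steroids, changed by -2.12 ± 0.42, Tnnc1, a troponin of slow and cardiac muscle, by -2.98 ± 0.48, Vil1, the brush border protein villin, by -0.87 ± 0.17, Dync1li1, a dynein light intermediate chain, by -0.99 ± 0.20, and Plcxd2 by -1.17 ± 0.30. Plcxd2 was reversed in 3 of 24 settings, with no scaling and no left-out library among them, Hsd17b2 in 16 of 24 and Vil1 in 17 of 25. The predicted gene 2010003K11Rik had the widest change of this set, of size 3.53 downwards, and the pseudogenes Gm12346, Gm5844, Gm17045 and Gm17046 changed by -2.34 ± 0.36, -2.03 ± 0.42, -1.83 ± 0.42 and -1.75 ± 0.34, with values that are uncertain where reads are shared with their parent genes.

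From below to above sham, 3 more secreted signals changed: Ptn, the growth factor pleiotrophin, by 2.44 ± 0.49, Rarres2, the chemoattractant chemerin, by 1.79 ± 0.30, and Gas6, a ligand of the TAM receptors, by 1.27 ± 0.29. Peptide and membrane proteins included Xpnpep2, an aminopeptidase (2.38 ± 0.40), Kng1, a kininogen similar to Kng2 (1.75 ± 0.37), Art4, an ADP-ribosyltransferase relative (2.66 ± 0.32), and Slc6a6, the taurine transporter (0.75 ± 0.18). Enzymes of metabolism were Acot3, an acyl-CoA thioesterase (2.18 ± 0.38), Fads1, a fatty acid desaturase (1.26 ± 0.24), Shmt1, of one-carbon metabolism (1.24 ± 0.22), Ckb, creatine kinase B (1.42 ± 0.33), and Dhrs11, a dehydrogenase (1.44 ± 0.35). H1f0, a linker histone, changed by 1.2 ± 0.17 and Hoxd8, a homeobox factor, by 1.36 ± 0.22. Others were Arhgap4 (1.43 ± 0.26), Rnaset2a (1.31 ± 0.22), Appl2 (1.36 ± 0.26), Copz2 (1.61 ± 0.37), Shd (2.15 ± 0.53), Gm128 (1.53 ± 0.38) and the non-coding or unclassified AI838599 (3.0 ± 0.37), Gm16010 (2.68 ± 0.51) and D630023O14Rik (1.91 ± 0.35). Several of these sit near the threshold: Gm128 was reversed in 6 of 24 settings, Shd in 7 of 24, Slc6a6 and Dhrs11 each in 11 of 25, Ckb in 12 of 25 and Gas6 in 14 of 25, against 25 of 25 for H1f0 and 24 of 24 for Art4. Itm2b, Mia2 and Uhmk1, whose signs depended on the scaling, changed by 0.74 ± 0.15, -0.73 ± 0.17 and -0.84 ± 0.16.

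Some injury genes of the tubule declined steeply, and most were still above sham at day 14. Krt20, a keratin, was at 193, 479 and 794 FPKM in transplant at day 1 and 6.65, 4.53 and 2.39 at day 14, with every sham library of both days below 1, a change of -6.29 ± 0.51 (adjusted p = 7.99e-07). Plin2, the coat protein of lipid droplets, was at 449, 726 and 982 FPKM at day 1 against 21.8, 25.1 and 21.9 in sham, and at 53.5, 34.1 and 26.8 against 26.2, 21.4 and 23.4 at day 14, a change of -4.23 ± 0.34 (adjusted p = 6.06e-07). Havcr1, the injury marker KIM-1, still stood 6.06 above sham at day 14 after 9.29 at day 1. Of 30 injury genes all were called above sham at day 1 and 27 at day 14, against 29.6% and 22.4% of all genes. For the change 12 were called lower, and Cp, ceruloplasmin, alone was called higher (1.43 ± 0.29). Fosl1, an AP-1 subunit, changed by -3.82 ± 0.46, Flnc, a filamin of muscle, by -4.14 ± 0.37, and Calcb, a calcitonin gene-related peptide, by -4.62 ± 0.90. Calcb was at 3.24, 50.1 and 70.8 FPKM in transplant at day 1 and listed at 0 in all sham libraries of both days. Immediate early genes had 6 of 24 called lower and p53 targets 4 of 22, against 5.05% of all genes. Nat8f5, an acetyltransferase relative, appeared as a late fall: transplants were at 16.4, 14.9 and 15.9 FPKM at day 1 and 1.76, 0 and 0 at day 14, with 2 libraries listed at 0 (sham at day 14, 10.3, 15.96 and 21.02), a change of -3.94 ± 0.46 (adjusted p = 3.25e-05).

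**Figure D5:**
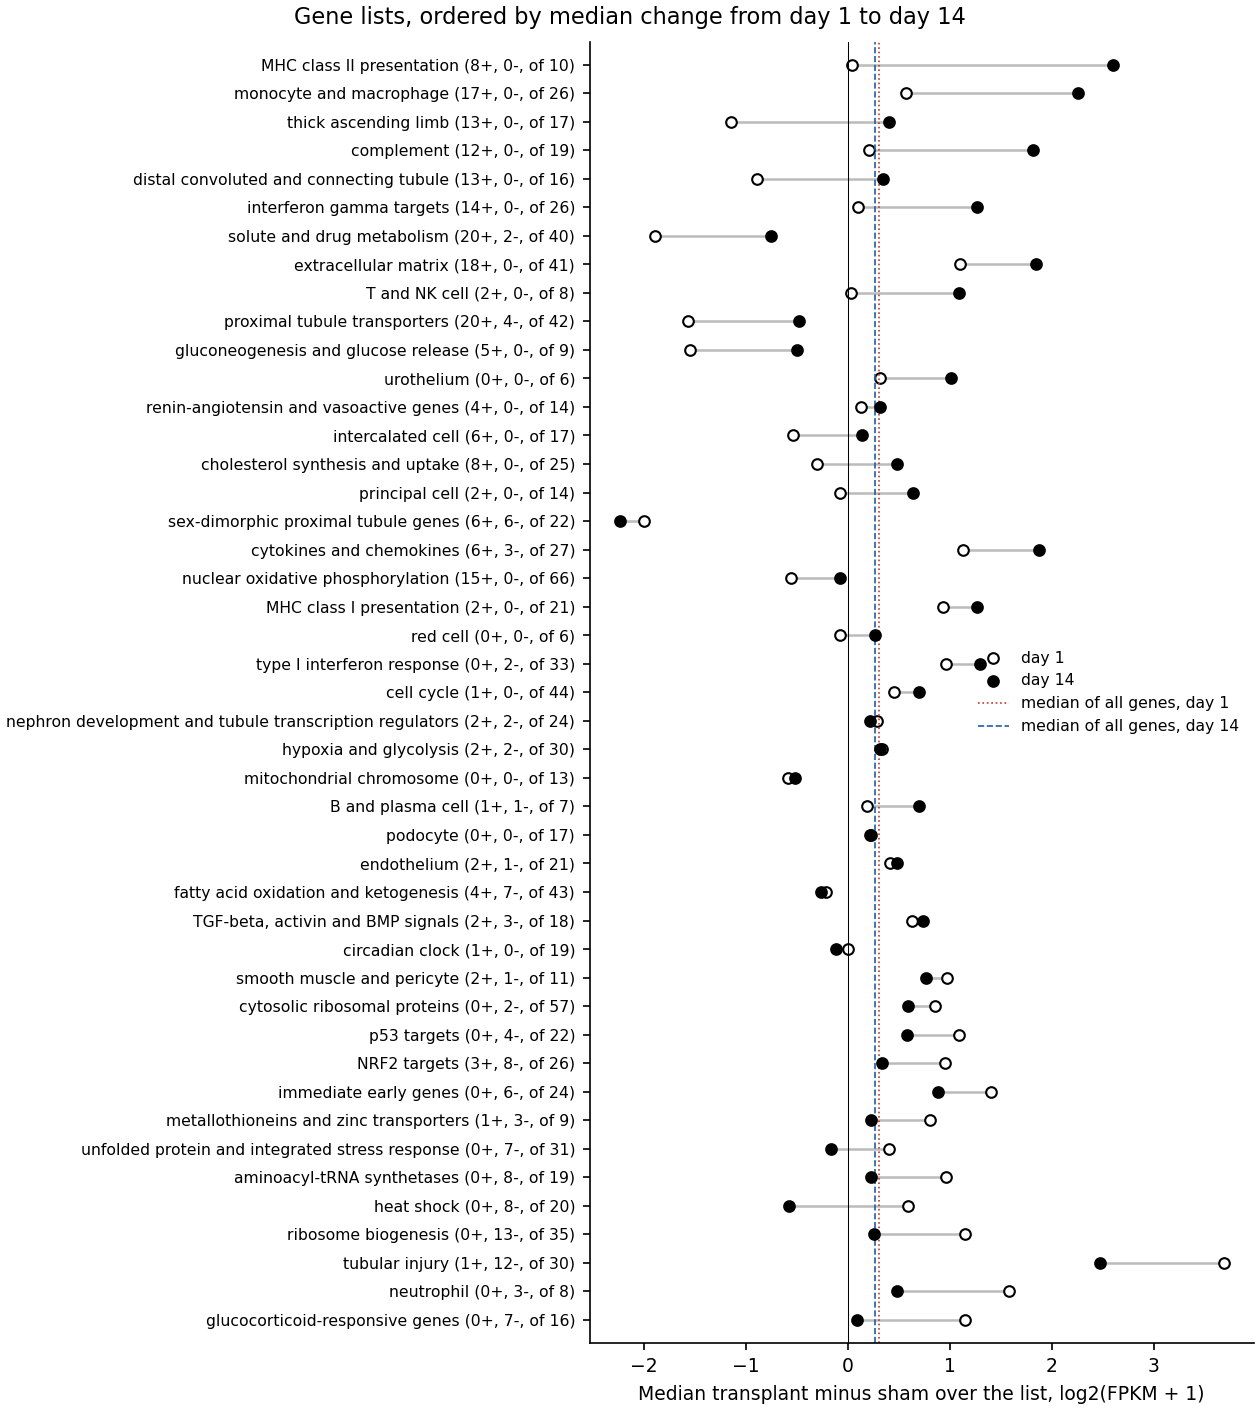
Median transplant minus sham over the tested genes of each list with at least 5 tested genes, as log2(FPKM + 1), at day 1 (open) and day 14 (filled), with the counts called higher (+) and lower (-) for the change beside each name. The thick ascending limb and the distal convoluted and connecting tubule cross 0 upwards, the heat shock and unfolded protein lists cross 0 downwards against the sham of the same day, and tubular injury stays above 0 at both days.

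Some programmes showed few calls for the change, where 5.2% of all genes were called higher and 5.05% lower. Podocyte genes, of the glomerular filter, had 0 called higher and 0 lower of 17, with medians of 0.23 and 0.22, near the median of all genes at both days. In a list of 17 genes no call is near the share of all genes. The cell cycle list had 1 higher of 44, Mki67, the proliferation marker (1.57 ± 0.43). The endothelium, with 2 higher and 1 lower of 21, was near the share of all genes. The 13 protein genes of the mitochondrial chromosome had no call for the change, which in a list of this size is also near that share. They were not level with sham: 12 were called below it at day 1 and 7 at day 14.

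Metabolic lists had more calls than the 10.3% of all genes. Of 66 nuclear genes of oxidative phosphorylation 15 were called higher for the change, and the median went from -0.56 to -0.07. Under median-of-ratios scaling the medians were -0.94 and -0.39, and 24 were called below sham at day 14, against 2 as deposited. Fatty acid oxidation was mixed, with 4 higher and 7 lower of 43. Cholesterol synthesis had 8 of 25 called higher, among them Cyp51 (2.10 ± 0.25) and Idi1 (2.01 ± 0.31), both of the synthetic path.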

How the data were processed

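RNA-seq of kidney was analysed from 1 table of 18 libraries. Its values are FPKM per gene, which the authors computed and deposited without counts. Build mm10 and DESeq2 stand in the submitters' processing notes without a role. Which aligner, quantifier and annotation were used is not given in the sources used here. Gene IDs lacked their first letters: with ENSMUSG restored, 54819 of 54848 matched GENCODE M21. Depth is unknown, and whole reads could not be recovered (13.2% to 25.2% of low values were whole at a tolerance of 0.05). FPKM sums ran from 386876 to 524362, and 18666 to 23088 genes were above 0.

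Group means of log2(FPKM + 1) for surgery and day were fitted over all 18 libraries with limma 3.58.1 in R 4.3.3 (moderation with trend, robust). The contrast was (transplant minus sham at day 14) minus (transplant minus sham at day 1), without a replicate block, and p-values were adjusted by Benjamini-Hochberg over all genes tested. Reversed genes had an adjusted p below 0.05 at day 1, at day 14 and for the change, with opposite signs. The steps were tested on simulated data. Tables and figures were made with Python 3.11.15 and matplotlib 3.10.9.

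Alternatives were the pseudocount (0.1 or 5), the filter, 4 scalings, moderation, the libraries fitted, array weights, a replicate block, a minimum log2 difference of 1, leaving out each library, and, chosen after seeing the data, the mean of the 3 sham groups as control. The members and the 47 gene lists were chosen with earlier results of these data known. Named genes were the 15 reversed genes of each direction with the largest change (mean FPKM of at least 5 in a group, transplants separate from sham at both days), the 8 largest others of each direction, up to 3 per list by adjusted p, and a fixed panel. Named outside this rule, after their values were seen, were Cldn8, Sostdc1, Ptger3, H2-Ab1, Ciita, Irgm2, Gbp2, Csf1r, C1qa, Cfi, Slco3a1, Slc6a18, Slc7a13, Lrp2, Cyp2j13, Prlr, Igfbp7, Pdgfd, Fn1, Lox, Col1a2, Hsp90ab1, Hsph1, Pdk4, Angptl4, Mt2, Gstm2, Ephx1, Gsta4, Itm2b, Mia2, Uhmk1 and the reversed genes given last in both directions. The values of 1 reversed gene are not reported here. Promoters came from a RefSeq table (GRCm38.p6). AP-1, E-box, antioxidant response and HNF4 motifs and a heat shock motif of 3 repeats were also searched.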

Additional observations from a re-analysis of the deposited data

Results flagged for a closer look

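For 30 named genes the transplant effect at day 14 differed from that at day 1 by the limma test of the difference itself, and the sign was opposite at the 2 days. The values are the change in log2(FPKM + 1), and the call for the change held without each library in turn for all 30. The reversal, which also needs a call at each day, was less stable. It held in all 12 of these fits for Slc8a1, H2-Aa, Tgtp2, Rdh16f2, Serpina1a, Hsp90aa1, Creld2, Fkbp5 and Mpp1. The others of the 30 lost it in some of the fits. It was kept in 3 of 12 for P4ha1, 7 for Calb1 and 8 for Sfrp1, Cda and Tmem129. Among genes that went from below to above sham, those of tubule segments and transport changed by 5.72 for Slc7a12, 4.12 for Calb1, 3.65 for Abca13, 3.44 for Slc8a1, 3.31 for Rdh16f2 and 2.35 for Slc22a29. The protease inhibitors Serpina1a and Serpina1c changed by 3.84 and 3.0, and reads may be split between them. Genes of antigen presentation, interferon response and myeloid cells changed by 3.82 for H2-Aa, 3.52 for H2-Eb1, 2.70 for Tgtp2 and 2.66 for Plbd1. Kynu changed by 2.91, Cdkn2c by 2.57 and Sfrp1 by 2.55.

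Among genes that went from above to below sham, the chaperones Hsp90aa1 and Hspa4l changed by -2.07 and -1.25, and genes of the endoplasmic reticulum by -2.34 for Creld2, -1.16 for P4ha1 and -1.31 for Tmem129. Those of iron and heme handling changed by -1.47 for Fth1 and -2.15 for Blvrb. The others were Tex30 with -2.67, Fkbp5 with -2.55, Nhp2 with -1.87, Mpp1 with -1.72, Cda with -1.54, Osbpl10 with -1.52, Rbpms2 with -1.13 and Opa3 with -1.13.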

How the results depend on the processing

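The 138 named genes called for the change kept its direction in every one of 25 alternatives in which they were tested, and 107 of them stayed past the threshold in each. Counts moved more. Against 772 genes called lower, the fit to the day 1 and day 14 libraries alone gave 509 and a minimum difference of 1 gave 512. Testing all genes above 0 left 19 genes reversed from above to below sham and 25 from below to above, with more genes in the adjustment, and array weights gave 31 of the latter kind, 29 of them among those reported. For the fit to fewer libraries and the array weights the cause was not tested. With the mean of the 3 sham groups as control, chosen after seeing the data, the change equals the difference between the transplant groups by construction. It called 1689 higher and 2061 lower, with 50 and 103 reversed. Leaving out each library gave 593 to 888 genes higher, 552 to 927 lower, 21 to 35 reversed from above to below and 31 to 66 from below to above, the last lowest without transplant at day 14 replicate 2 and highest without replicate 1. Median-of-ratios scaling gave 861 higher and 683 lower. Under it 40 genes were reversed from above to below sham, 12 of them among the 29 reported. From below to above there were 48, with 23 among the 50 reported. Csf1r, Sfrp1, Abca13, Slc22a29 and Serpina1c were among those not reversed under it. The share of calls that were higher was 50.7% as reported. It ran from 45.04% to 60.4% over the settings that kept all libraries of the 4 groups, highest with sums equalised without the mitochondrial chromosome. Replicate numbers did not pair the libraries: correlations of same-numbered libraries lay between -0.114 and 0.111, and the replicate block gave 745 higher and 707 lower, with 29 and 50 reversed. Without counts, depth sets no limit that can be stated for low genes.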
